A study of Rattus norvegicus with 12 samples.

Results

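The genes described here handle acid in the cell: 3 carbonic anhydrases (Car2, Car9 and Car12), 3 monocarboxylate transporters (Slc16a1, Slc16a3 and Slc16a7), the transporter chaperone Bsg and the bicarbonate importer Slc4a7. They were chosen by symbol, and every probe set whose annotation gave one of these symbols alone was taken. All 8 genes were measured, by 11 probe sets, among 14217 genes and 20826 probe sets with a single symbol on the array. A probe set is the group of short oligonucleotides on the array that reads 1 transcript or a part of it.

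F111 is an immortal rat fibroblast line that grows attached to plastic. The study asked what happens to such cells when they lose their anchorage, a state that leads to the form of cell death called anoikis. RNA was measured in NA16 cells, held in suspension over agarose for 16 h, and in A16 cells, kept adherent on plastic for 16 h. Each state had 3 arrays, from biological replicates 1 and 2 and a technical replicate 2. Both states were grown in Dulbecco's medium with fetal calf serum, and attachment is the only difference that the labels name. F111 is 1 line, so the data describe this line. The states also differed in viability. In suspension, the paper reports, most cells of this line were no longer viable at this time point. It describes those still alive as rich in apoptotic proteins, with fragmented DNA. Removal of dying cells from the NA16 cultures before RNA was taken was not described in the sources used here. The changes below therefore compare whole cultures, and the part of cell death in them was not tested. In bulk RNA, fewer cells that carry a transcript and less of it per cell cannot be told apart.

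Carbonic anhydrases interconvert carbon dioxide and water with bicarbonate and a proton. Car2 is the fast enzyme of the cytosol, whereas Car9 and Car12 sit in the plasma membrane with the active site outside the cell, and Car9 is a well-known target of the hypoxia-inducible factor. Monocarboxylate transporters carry lactate or pyruvate across the membrane together with a proton, so the end product of glycolysis and the acid formed with it leave the cell on the same protein. Slc16a1 encodes MCT1, found in most cells, Slc16a3 encodes MCT4, the exporter typical of strongly glycolytic cells, and Slc16a7 encodes MCT2, which binds its substrates most tightly. Bsg, basigin, is the membrane glycoprotein that MCT1 and MCT4 need to reach the cell surface. Slc4a7 encodes NBCn1, which brings sodium and bicarbonate into the cell and so buffers the cytosol from within.

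The promoters of the 3 genes that were higher in NA16 cells are shown because these 3 are the members called higher. RefSeq promoter sequences on the GRCr8 build, from 250 bases before to 50 bases after an annotated start, matched 6 of the 8 genes, all but Car2 and Slc4a7. Capitals mark the letters ACGTG and GCGTG on either strand. ACGTG and GCGTG are the core letters that the hypoxia-inducible factor binds, and CACGTG is the E-box letters bound by Myc and its relatives. CACGTG contains ACGTG on both strands and was counted once for each. The windows are chr5:62558774-62559073 on the plus strand for Car9, chr2:194812410-194812709 on the plus strand for Slc16a1 and chr7:10650956-10651255 on the minus strand for Bsg.
Car9: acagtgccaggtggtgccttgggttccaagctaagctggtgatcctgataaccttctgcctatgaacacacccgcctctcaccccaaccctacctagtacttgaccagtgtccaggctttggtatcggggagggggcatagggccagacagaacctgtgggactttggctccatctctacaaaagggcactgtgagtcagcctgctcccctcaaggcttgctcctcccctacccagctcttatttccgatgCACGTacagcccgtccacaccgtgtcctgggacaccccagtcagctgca
Slc16a1: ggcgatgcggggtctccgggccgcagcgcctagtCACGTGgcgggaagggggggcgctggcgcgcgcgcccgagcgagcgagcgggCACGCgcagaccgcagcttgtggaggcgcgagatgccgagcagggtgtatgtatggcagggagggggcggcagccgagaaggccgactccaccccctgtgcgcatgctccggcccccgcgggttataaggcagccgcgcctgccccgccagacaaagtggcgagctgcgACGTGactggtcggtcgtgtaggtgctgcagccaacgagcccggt
Bsg: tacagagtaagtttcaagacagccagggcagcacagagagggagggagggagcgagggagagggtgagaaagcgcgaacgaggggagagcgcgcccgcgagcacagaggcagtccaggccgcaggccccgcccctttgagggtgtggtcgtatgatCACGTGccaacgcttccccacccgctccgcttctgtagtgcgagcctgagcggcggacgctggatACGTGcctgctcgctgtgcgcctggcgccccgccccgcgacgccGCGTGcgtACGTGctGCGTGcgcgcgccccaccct

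The Car9 window held 1 such match, ACGTG on the opposite strand at positions 2 to 6 counted from the start as 1. The Slc16a1 window held 4, with CACGTG at -216 to -211, GCGTG on the opposite strand at -164 to -160 and ACGTG at 6 to 10. The Bsg window held 6, with CACGTG at -94 to -89, further ACGTG at -29 to -25 and 24 to 28, and GCGTG at 16 to 20 and 31 to 35. Among the members that were not called, the Car12 window held 4 matches, that of Slc16a7 held 1 and that of Slc16a3 held 0. Of all 33469 promoters of this length, 41.6% held ACGTG or GCGTG, 19.3% held ACGTG, 29.7% held GCGTG and 6.42% held CACGTG. A match describes the letters of a window and is not a binding site, and a window without one says only that the letters are not in it. The Slc16a1 window starts inside the annotated gene (chr2:194805556-194832966), while Car9 (chr5:62559024-62565626) and Bsg (chr7:10643788-10651005) have their windows at the gene's own 5′ end. The other genes lie at chr2:88462883-88478012 (Car2), chr8:76169723-76225465 (Car12), chr10:106712328-106756168 (Slc16a3), chr7:62929067-63096995 (Slc16a7) and chr15:13015854-13095485 (Slc4a7).

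The 6 arrays were close in brightness, with median RMA intensities from 152.14 to 157.06. RMA is the algorithm that turned the probe brightnesses into 1 intensity per probe set, and values below are log2 of that intensity, on which a difference of 1 is a 2-fold change. The labels do not name the biological replicate that the technical replicate 2 array repeats. Only biological replicate 1 is also labelled technical replicate 1. The technical replicate 2 array was therefore averaged with biological replicate 1 of its state, giving 2 replicates per state. In A16 this array did lie closest to biological replicate 1, with a root mean square distance of 0.169 over genes against 0.269 to replicate 2. In NA16 it lay closer to biological replicate 2 (0.167) than to replicate 1 (0.287). Averaging it with the closest array in each state, a choice made after the data were seen, left the calls of all 8 genes as they were. The 5′, middle and 3′ control probe sets of beta-actin differed by -1.21, -1.02 and -0.72 log2 units, NA16 minus A16, and those of GAPDH by 0.19, 0.28 and 0.24, and the part of either in the results was not tested. Of the 13 fibroblast markers, 9 lay above the array medians in both states, among them Col1a1 (14.28 in NA16, 14.60 in A16) and Vim (14.77 in NA16, 14.63 in A16). The other 4, Postn, Lum, Dcn and Fap, lay below them, and these 6 genes were named after their values were seen. Limma called 5 of the 13 higher in NA16 (Pdgfrb, Lum, Pdgfra, Dcn and Thy1) and 0 lower (1 lower at an unadjusted p under 0.05). For this count and the marker counts that follow, the shares over all genes were 21.8% higher and 16.9% lower. The other Pdgfrb probe sets changed by 0.19 and 0.16 and the other Thy1 probe set by 0.23, none of them called. In the fit over probe sets Dcn and Thy1 were not called either. Thy1 was named after its value was seen. The summed intensity of the 13 markers was 97021 to 126016 in NA16 and 112720 to 129963 in A16. Among markers of other cell types, 1 of 10 macrophage markers (Cd68), 2 of 10 epithelial markers (Krt8 and Epcam) and 1 of 7 endothelial markers (Pecam1) were higher in NA16, and 1 endothelial marker (Egfl7) was lower. Their summed intensities were 875 to 903 in NA16 and 716 to 757 in A16 for macrophage markers, 3150 to 3555 in NA16 and 1736 to 1859 in A16 for epithelial markers, and 969 to 1019 in NA16 and 1036 to 1183 in A16 for endothelial markers. Their part in the members' changes was not tested. Limma's fit over probe sets did not call the Egfl7 probe set that stands for the gene (adjusted p 0.052). It did call the other Egfl7 probe set lower, at -0.54.

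Suspended cells had more RNA for the membrane carbonic anhydrase Car9, for the lactate carrier Slc16a1 and for its chaperone Bsg, and less for the bicarbonate importer Slc4a7. Car9 changed most, 2.40-fold, Slc16a1 1.83-fold and Bsg 1.74-fold, while Slc4a7 was 1.69-fold lower. Car2, Car12, Slc16a3 and Slc16a7 did not pass the test. At an adjusted p below 0.05 in limma, with Benjamini-Hochberg adjustment over all genes, 3 of the 8 genes were thus higher in NA16, where 21.8% of all genes were, and 1 of 8 was lower, where 16.9% of all genes were. Over probe sets the counts were 3 of 11 higher, beside 16.9% of all probe sets, and 1 of 11 lower, beside 15% of all. The median log2 change was 0.02 over the 8 genes and 0.01 over all genes. With 8 genes these counts were not set against the background by any test, and only the values of each gene are given as results. In 5 of the 8 genes the 3 NA16 arrays did not overlap the 3 A16 arrays, as in 51.7% of all genes, so a gap between the states was common on these arrays.

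**Figure D1:**
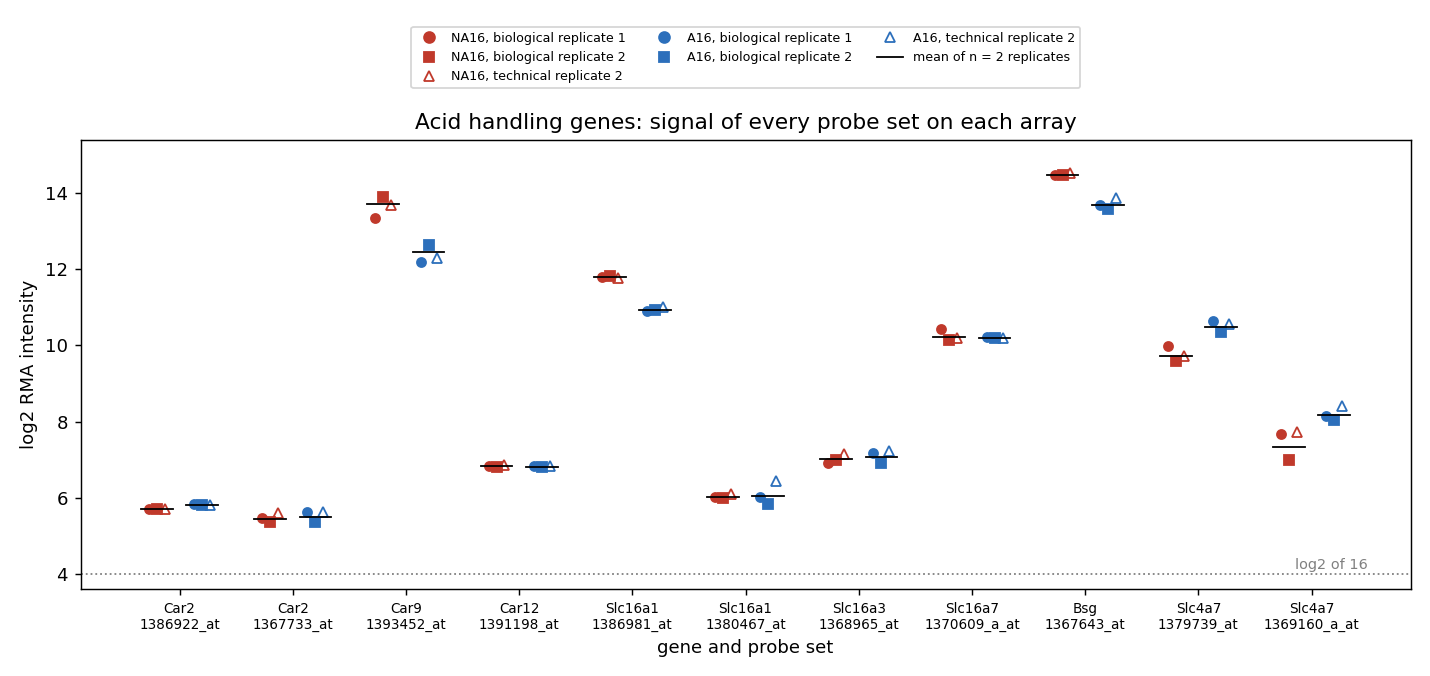
The plot gives the log2 RMA intensity (vertical axis) of each of the 11 probe sets (horizontal axis) on the 3 NA16 arrays (red, left) and the 3 A16 arrays (blue, right), with the mean of n = 2 replicates as a bar and log2 of 16, near the lowest deposited value, as a dotted line. Car9, Slc16a1 (1386981_at) and Bsg have all NA16 points above all A16 points, both Slc4a7 probe sets have them below, and the points of Car12, Slc16a3 and Slc16a7 mix.

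Among the carbonic anhydrases, Car9 (1393452_at) was the gene of the set with the largest change. It measured 13.34, 13.90 and 13.68 on the NA16 arrays of biological replicate 1, biological replicate 2 and technical replicate 2, against 12.19, 12.63 and 12.30 on the A16 arrays in the same order. Each NA16 array lay above each A16 array, and the array of biological replicate 1 was the lowest in both states. Averaged by replicate, Car9 stood at 13.70 ± 0.28 in NA16 and 12.44 ± 0.27 in A16 (SD, n = 2 each). The log2 change was 1.26, with a 95% interval of 0.82 to 1.70, which is 2.40-fold with an interval of 1.77 to 3.26, and limma's adjusted p was 0.0019. On the linear scale this is an intensity of about 13341 in NA16 and 5554 in A16, so the transcript was already bright in attached cells. The spread between replicates within a state was wider for Car9 than for Slc16a1 or Bsg, and its interval was the widest of the 3. The change between same-numbered replicates, however, was 1.26 and 1.27 for Car9. It was 0.84 and 0.89 for Slc16a1 and 0.72 and 0.87 for Bsg. Replicate 1 of these changes is the average that includes technical replicate 2, whose source the labels do not name. How close the changes of the replicates are therefore depends in part on that averaging. The fit did not pair the replicates, so the intervals do not draw on these changes.

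Car12 (1391198_at), the other membrane enzyme with its active site outside the cell, measured 6.84, 6.80 and 6.86 on the NA16 arrays and 6.83, 6.81 and 6.83 on the A16 arrays, in the same order of arrays as above. The values of the states were mixed and nearly level. The log2 change was 0.00 (95% interval -0.26 to 0.26, adjusted p 0.99 in limma). Whether this dim probe set detected the transcript was not checked, so the interval describes its signal and cannot exclude a rise of Car12 RNA. The difference between the changes of Car9 and Car12 was not tested. Car12 lay below the array median of about 7.25 to 7.30. With 16 subtracted from the intensities, to take away the constant that the deposited values appear to hold, its change was still 0.00 (SE 0.13).

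Car2, the cytosolic enzyme, was read by a pair of probe sets, both dim. The brighter (1386922_at) measured 5.71, 5.71 and 5.72 in NA16 and 5.84, 5.80 and 5.80 in A16. All NA16 arrays lay below all A16 arrays, but by a small margin, and with a log2 change of -0.10 (-0.36 to 0.16) and an adjusted p of 0.57 the gene did not pass the test. The other probe set (1367733_at) measured 5.47, 5.37 and 5.59 in NA16 and 5.64, 5.37 and 5.64 in A16, with arrays that overlapped and a change of -0.06 (adjusted p 0.83 over all probe sets).

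Among the lactate carriers, Slc16a1 (1386981_at), the carrier of most tissues, was higher in suspension with little spread between arrays. It measured 11.80, 11.82 and 11.77 on the NA16 arrays and 10.89, 10.93 and 10.997 on the A16 arrays. The arrays of each state lay together and the states stood well apart. The replicates averaged 11.80 ± 0.02 in NA16 and 10.94 ± 0.01 in A16 (SD, n = 2 each), a log2 change of 0.87 (0.61 to 1.13), or 1.83-fold (1.52 to 2.18), with an adjusted p of 9.8e-04 in limma. On the linear scale this is about 3577 in NA16 and 1960 in A16.

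The second Slc16a1 probe set (1380467_at) was not called under RMA but was called higher under PLIER, the other algorithm the authors applied to the same arrays. Under RMA it measured 6.01, 6.0 and 6.09 in NA16 and 6.02, 5.84 and 6.44 in A16, which overlap, with a change of -0.01 (-0.40 to 0.38) and an adjusted p of 0.98. Under PLIER it measured 8.92, 8.79 and 8.61 in NA16 and 7.74, 7.79 and 8.04 in A16, which do not overlap. The PLIER change was 0.94 (0.60 to 1.28), or 1.92-fold, with an adjusted p of 0.0052. This is near the 0.83 that the first probe set gave under PLIER (adjusted p 0.0073). Each adjusted p given here for a single probe set is limma's over all probe sets. When both probe sets were averaged under RMA, the change of Slc16a1 was 0.43 (adjusted p 0.027), so its direction and call held and its size was smaller. The part of the transcript that each probe set reads was not given in the sources used here, and the cause of the disagreement was not tested.

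Bsg (1367643_at), the chaperone of MCT1 and MCT4, measured 14.47, 14.46 and 14.52 in NA16 and 13.68, 13.59 and 13.86 in A16. All NA16 arrays lay above all A16 arrays. The replicates averaged 14.48 ± 0.02 in NA16 and 13.68 ± 0.13 in A16 (SD, n = 2 each), a log2 change of 0.80 (0.51 to 1.08), or 1.74-fold (1.43 to 2.11), with an adjusted p of 0.0021. Its intensity of about 22815 in NA16 and 13144 in A16 lay near the top of the scale, where the highest intensities of the arrays were 30888 to 33287, and a change there may be understated.

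Slc16a3 (1368965_at), which encodes the exporter MCT4, was dim. It measured 6.90, 6.98 and 7.16 in NA16 and 7.17, 6.92 and 7.22 in A16, and the arrays of the 2 states mixed. The replicates averaged 7.01 ± 0.04 in NA16 and 7.06 ± 0.19 in A16 (SD, n = 2 each), with a change of -0.05 (-0.37 to 0.26, adjusted p 0.82). Slc16a7 (1370609_a_at), which encodes MCT2, measured 10.43, 10.15 and 10.19 in NA16 and 10.22, 10.19 and 10.19 in A16. Its arrays also mixed, and its change was 0.03 (-0.24 to 0.31, adjusted p 0.87). For both genes the interval ends below the lower end of that of the brighter Slc16a1 probe set, 0.61. The interval of the second Slc16a1 probe set under RMA, -0.40 to 0.38, overlaps both. The differences between these genes were not tested. Whether the dim Slc16a3 probe set detected its transcript was not checked, so its interval cannot exclude a rise of Slc16a3 RNA.

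Slc4a7 was the member that was lower in suspension, and its 2 probe sets had changes of the same sign. The brighter (1379739_at) measured 9.97, 9.58 and 9.72 in NA16 and 10.65, 10.34 and 10.57 in A16. Every NA16 array lay below every A16 array, and the replicates averaged 9.72 ± 0.19 in NA16 and 10.48 ± 0.19 in A16 (SD, n = 2 each). The log2 change was -0.76 (-1.11 to -0.41), 1.69-fold lower, with an adjusted p of 0.0065 in limma. The other probe set (1369160_a_at) measured 7.67, 6.99 and 7.72 in NA16 and 8.15, 8.04 and 8.42 in A16, again with no overlap. Its change of -0.82 (-1.44 to -0.20) had an adjusted p of 0.055 over all probe sets and so did not pass, with the NA16 replicates as far apart as 0.50 (SD) around 7.34. It passed in 11 of 18 alternative treatments of the data, PLIER among them (-0.92, adjusted p 0.028). Without NA16 replicate 1 its change was -1.17 and without NA16 replicate 2 it was -0.47.

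**Figure D2:**
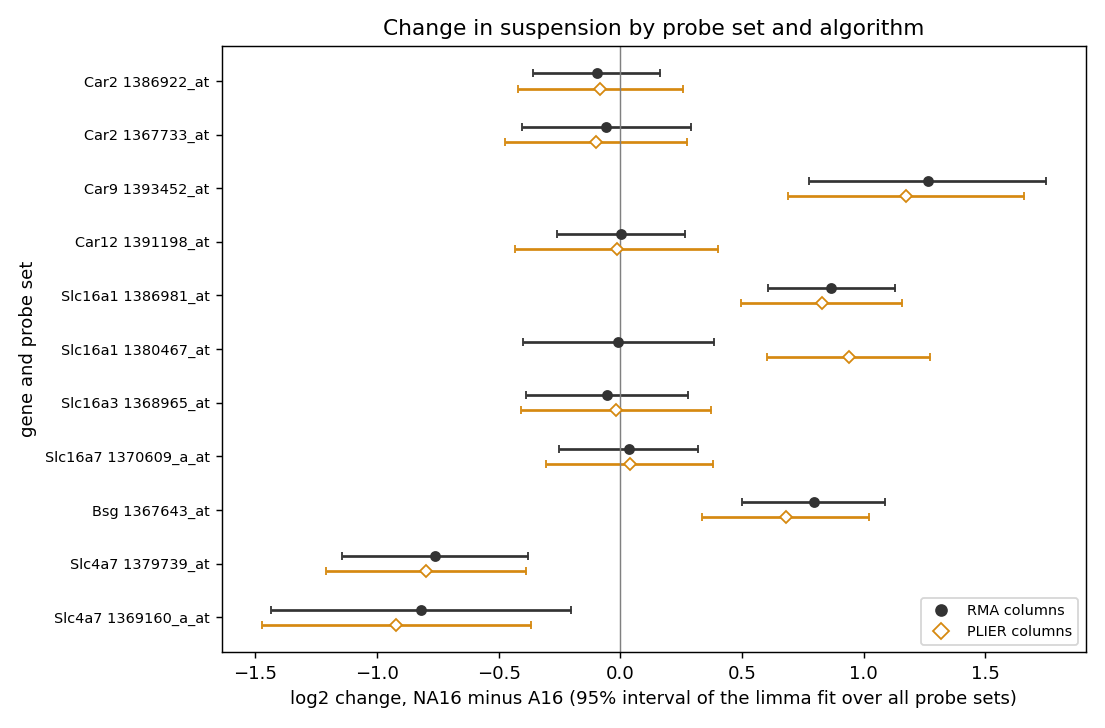
The plot gives the log2 change, NA16 minus A16 (horizontal axis), of each of the 11 probe sets (vertical axis) as fitted over all probe sets, with 95% intervals, from the RMA columns (circles) and the PLIER columns (diamonds). The algorithms give 1.26 and 1.17 for Car9, 0.80 and 0.68 for Bsg and -0.76 and -0.80 for the brighter Slc4a7 probe set, and they part only at the second Slc16a1 probe set, with -0.01 and 0.94.

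PLIER changes of the members were close to those of RMA in all but that probe set. In limma over all probe sets, the PLIER change was 1.17 for Car9 (2.26-fold, adjusted p 0.0080) and 0.83 for the first Slc16a1 probe set. It was 0.68 for Bsg (1.60-fold, adjusted p 0.015) and -0.80 for the brighter Slc4a7 probe set (adjusted p 0.017). Over genes, limma's adjusted p under PLIER was 0.0032 for Car9, 0.0031 for Slc16a1, 0.0078 for Bsg and 0.0081 for Slc4a7. Leaving out either replicate of either state kept the sign of these 4 genes, with changes from 1.07 to 1.46 for Car9, 0.85 to 0.88 for Slc16a1, 0.71 to 0.89 for Bsg and -0.89 to -0.63 for Slc4a7. In such a fit 1 state has a single sample, whose spread is assumed to be that of the other state, so calls made or lost there are no measure of stability. The simpler test that the study's methods name, applied to the same replicates with a 2-fold limit, called 1 of the 8 genes, Car9, where it called 7.18% of all genes higher and 5.54% lower. After Benjamini-Hochberg adjustment it called 0 of the 8 and 13 genes higher and 7 lower of all 14217.

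The genes whose pattern over the 6 arrays was most like that of each member were found by the root mean square distance of centred log2 values, and are given as a description. That their changes resemble those of the members follows from this choice. Tspyl2 (0.030) and Adcy6 (0.051) were nearest to Car9, and both were also higher in NA16, by 1.28 and 1.25. Nearest to Slc16a1 were Slc25a17 (0.034) and Capn3 (0.040), and nearest to Bsg were LOC102547113 (0.029) and Clba1 (0.041). Rad1 (0.040) and Sinhcaf (0.043) were nearest to Slc4a7, with changes of -0.80 and -0.73. No member was among the 2 genes nearest to another member. The flat members had flat neighbours: Hhipl1 and Fgf17 for Car2, LOC102555465 and Olr1 for Car12, Hcrt and Reep4 for Slc16a3, and Bhmt2 and Cacna1e for Slc16a7, with changes between -0.11 and 0.06.

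Related genes were taken from 7 lists of the same chemistry. For the limma counts of each list, here and below, the shares over all genes were 21.8% higher and 16.9% lower. Of 11 measured other carbonic anhydrases, 2 were higher in NA16, 1 was lower and 8 did not pass, with a median log2 change of -0.02. Car3, a slow cytosolic form typical of muscle and fat, measured 7.83, 7.90 and 7.45 in NA16 and 10.04, 10.29 and 9.75 in A16. It fell by 2.32 on the log2 scale in NA16 (4.99-fold, adjusted p 1.3e-04), a larger change than that of any of the 8 genes, and its second probe set fell by 1.04. Car11, a relative that lacks the catalytic activity, was higher by 1.13 (2.18-fold), with its other probe sets at 1.75 and 2.05. Car5b, a mitochondrial form, was higher by 0.54 (1.46-fold), with 0.47 without A16 replicate 1 and 0.49 without NA16 replicate 1, where it was not called.

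Of 9 other monocarboxylate transporters and ancillary proteins, 2 were higher in limma and 0 lower, 0 also at an unadjusted p under 0.05, with a median of -0.04. Emb, embigin, the relative of Bsg that partners MCT2, measured 10.24, 9.90 and 10.12 in NA16 and 9.28, 9.07 and 9.34 in A16, with no overlap and a change of 0.85 (1.81-fold, adjusted p 0.0039). Slc16a6 was higher by 0.95 (1.94-fold). Slc16a7, the carrier that Emb partners, was not called (0.03).

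Of 6 lactate and pyruvate handling genes, 3 were higher and 1 lower, with a median of 0.32. Ldha, the dehydrogenase subunit that favours lactate formation, was higher by 0.41 (1.33-fold). It was not called under PLIER (0.19), nor when any 1 replicate was left out, at changes of 0.38 to 0.43 with a single sample in 1 state. Ldhb, the subunit that favours lactate use, was higher by 0.96 (1.94-fold) and Ldhd, the mitochondrial D-lactate enzyme, by 1.42 (2.68-fold), although the second Ldhd probe set gave 0.57 and was not called. Mpc2, a subunit of the carrier that takes pyruvate into mitochondria, fell by 0.46 (1.37-fold). With 1 replicate left out its change was -0.52 to -0.40, and it was not called without A16 replicate 1, NA16 replicate 1 or NA16 replicate 2, each time with a single sample in 1 state.

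Of 9 other bicarbonate transporters, 2 were higher in limma and 0 lower, 0 also at an unadjusted p under 0.05, with a median of 0.04. Slc4a4, which encodes the sodium bicarbonate cotransporter NBCe1, measured 8.28, 8.23 and 8.24 in NA16 and 6.47, 6.69 and 6.75 in A16. The states were far apart, and the change was 1.60 (3.03-fold, adjusted p 1.2e-04), opposite in sign to that of Slc4a7, while the other Slc4a4 probe set gave 0.36 and was not called. Slc4a10 was higher by 0.70 but dim in both states (5.74 in NA16, 5.04 in A16).

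Of 9 sodium-proton exchangers and regulators, 2 were higher and 2 lower, with a median of -0.01. Slc9a9, an exchanger of endosomes, was higher by 1.41 (2.66-fold), although its second, dim probe set gave -0.25 and was not called. Tesc, a calcium-binding partner of an exchanger, was higher by 0.85, whereas the scaffold Nherf1 fell by 0.71 and the exchanger Slc9a5 fell by 0.63. Of 5 acid-sensing receptors and channels, limma called 0, with changes from -0.19 to -0.02, and 0 had an unadjusted p under 0.05.

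The vacuolar proton pump acidifies lysosomes and endosomes. Of 22 vacuolar proton pump subunits, 13 were higher in NA16, 1 was lower and 8 did not pass, with a median of 0.47. Over all genes 21.8% were higher and 16.9% lower. Atp6v1c2 was higher by 1.29 (2.45-fold), Atp6v0d1 by 1.13 (2.19-fold), Atp6ap2, an accessory protein, by 1.07 (2.1-fold) and Atp6v1a, a catalytic subunit, by 1.04 (2.05-fold). Atp6v0a2, named here after its value was seen as the 1 subunit called lower, changed by -0.47 (adjusted p 0.033), and 0 subunits were called lower under PLIER. The count of 13 was smaller in every fit without 1 replicate, as was the count of higher genes over all genes. Such fits again had a single sample in 1 state, so their counts are no measure of stability. The summed intensity of the subunits was 88149 to 88784 in NA16 and 58667 to 62740 in A16.

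**Figure D3:**
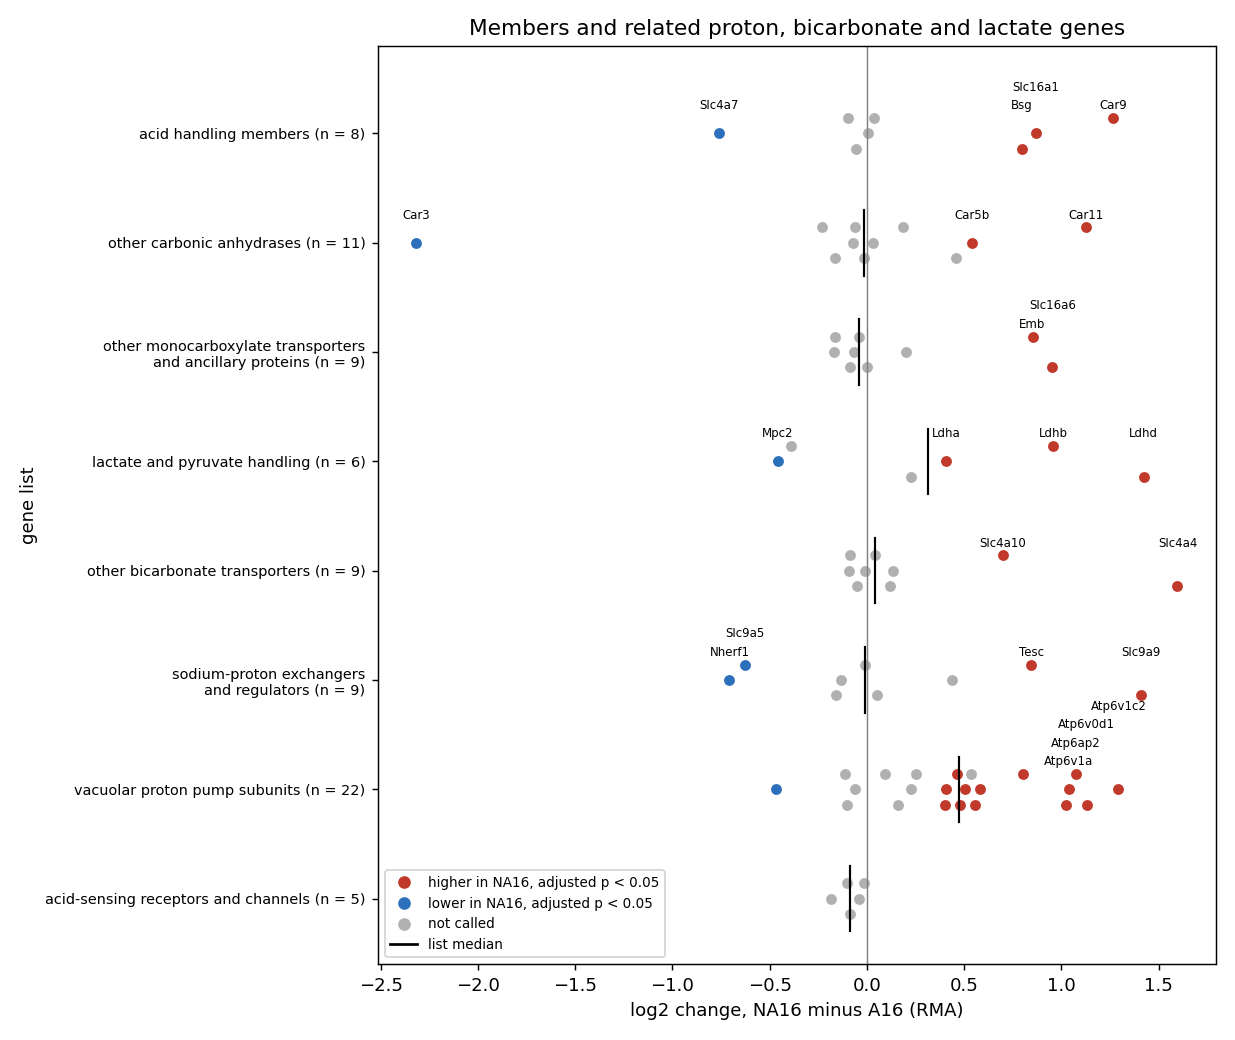
The plot gives the log2 change, NA16 minus A16 (horizontal axis), of the 8 genes and of the genes of the 7 related lists (vertical axis), 1 point per gene, red where higher and blue where lower in NA16 at an adjusted p below 0.05, grey otherwise, with list medians as bars and the up to 4 largest called genes named. Of the 8 genes 3 stand called on the right and 1 on the left, and of the 22 vacuolar proton pump subunits 13 on the right and 1 on the left, where 21.8% of all genes were called higher and 16.9% lower.

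The ribosomal gene Rpl19 and the housekeeping gene Hprt1 served as comparison genes that were neither members nor listed. Rpl19 differed by 0.12 (adjusted p 0.47) and Hprt1 by -0.43 (adjusted p 0.062), and neither was called in the main limma fit. Hprt1 was called lower in some of the 19 alternatives, over which its change ranged from -0.59 to -0.27. The changes of Car9, Slc16a1 and Bsg were of the opposite sign to that of Hprt1, and each of their intervals lay above that of Hprt1, whereas the interval of Slc4a7 overlapped it, at -1.11 to -0.41 for Slc4a7 and -0.78 to -0.07 for Hprt1.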

How the data were processed

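RNA from F111 cells was hybridised to Affymetrix rat arrays, scanned with the Gene Chip Operating Software and normalized in Avadis by RMA and PLIER. The values deposited by the authors are linear intensities, with a column for each array under each algorithm. Their log2 was taken, since the design was written for log values. All RMA intensities exceeded 16 (lowest 16.05), so a constant seems to be part of them, and fold changes of dim genes would then be understated. The detection calls in the files were left aside.

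Probe sets were named by the platform annotation: of 31042 that were not controls, 20826 had 1 symbol, 436 several and 9780 none here. RefSeq (GRCr8) matched 20758 of those with 1 symbol and all 8 members. A gene with several probe sets was represented by its brightest by mean log2 RMA value. The contrast NA16 minus A16 was fitted with limma 3.58.1 (lmFit, eBayes) in R 4.3.3. P-values were adjusted by Benjamini-Hochberg over the 14217 genes, or over the 20826 probe sets where stated, at a threshold of 0.05. Residual degrees of freedom were 2 and prior ones 4.74. The procedure was checked on simulated data with independent noise and few changed genes. That check does not cover correlated same-numbered replicates or as many changed genes as were called here.

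No source says that replicates came from separate cultures. P-values therefore measure only how far these samples spread, which may be a technical spread. The number of arrays limits the precision. Members and lists were chosen with earlier results of these data known. Named were all members with each probe set, up to 4 called genes of each list by size of change, the 2 genes nearest to each member, Rpl19 and Hprt1; a few others are marked as named after their values were seen. Of 135 list entries 111 were measured; the others were not analysed here. Alternatives changed the algorithm, the constant, the treatment of the technical replicate, the scaling, the filter, the test and the replicates used.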

Additional observations from a re-analysis of the deposited data

How the results depend on the processing

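Over 19 alternatives the changes ranged from 1.07 to 1.46 for Car9 (called in 18), 0.43 to 0.90 for Slc16a1, 0.68 to 0.89 for Bsg and -0.89 to -0.63 for Slc4a7 (each called in 17). These include 4 fits without 1 replicate, in which the single sample of a state is assumed to vary like the other state, and without an NA16 replicate each gene had the same error (0.2223), so their calls follow from the size of the change. Of the alternatives run, the methods' t-test was the one under which calls of these 4 genes were lost. At p below 0.05 with 2-fold change, which 7.18% of all genes passed higher and 5.54% lower, it called 1 of the 8 genes higher (Car9) and 0 lower, with Slc16a1 at 0.87, Bsg at 0.80 and Slc4a7 at -0.76 short of the limits. In limma, 24 of the 71 genes on the related lists were higher and 5 lower, beside 21.8% and 16.9% of all genes. The t-test called 9 of them higher and 1 lower, and of member probe sets 1 higher and 0 lower. After Benjamini-Hochberg adjustment it called 0 member genes, 0 member probe sets and 0 list genes in either direction (Car9 at 1.26, Slc16a1 at 0.87, Bsg at 0.80, Slc4a7 at -0.76, with 4642 of 14217 genes at an unadjusted p under 0.05), and over all genes 13 higher (0.0914%) and 7 lower (0.0492%), where limma called 3 members higher and 1 lower.

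Member probe sets called lower numbered 1 in limma. They numbered 2, with the second Slc4a7 probe set, under PLIER, with 16 subtracted, under PLIER with 16 added, with every array as its own replicate, with technical replicate 2 averaged with biological replicate 2 or with its closest array (chosen after seeing the data), with trend and robust eBayes, with 75th percentile centring, with a mean log2 intensity of at least 6 and with the replicate block. They numbered 0 with the technical replicate 2 arrays left out. In that fit 2 of the 71 list genes were called lower, where 12.8% of all genes were. Both counts moved in some fits without 1 replicate, which have a single sample in 1 state and are no measure of stability. The second Slc16a1 probe set (1380467_at) reversed, with 0.94 under PLIER and 0.89 under PLIER with 16 added. The causes were not tested.

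The replicate number as a block raised the calls over all genes to 3910 higher and 3114 lower from 3105 and 2399, and left 3 members higher and 1 lower. Deviations of same-numbered replicates correlated at 0.5594 over genes. The labels do not say what the same-numbered samples of the 2 states had in common, and the source of the correlation was not tested. With 16 subtracted, the dim members changed by -0.14 (Car2), 0.00 (Car12) and -0.06 (Slc16a3), with 0 of them called.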
